A study of Mus musculus with 18 samples.

Results

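The 7 genes described here encode the sodium, pacemaker and gap junction channels of the heart that were picked by name: the sodium channel subunits Scn4a and Scn4b, the connexins Gja1, Gja5 and Gjc1, and the pacemaker channels Hcn2 and Hcn4. All 7 are in both deposited tables, which hold 23457 entries (counts) and 23396 entries (FPKM, mapped fragments scaled to exon length and library size). The hearts came from 18 male C57BL/6 mice aged 17 weeks, 6 in each of 3 groups that differed in the recombinant adeno-associated virus given through the tail vein in adulthood: rAAV6-blank, a vector with no protein product, rAAV6-PLCb1a or rAAV6-PLCb1b. The PLC vectors carried FLAG-tagged forms of the splice variants a and b of phospholipase Cb1, which differ at the carboxyl end. The labels name both ventricles as the tissue, whereas the study's methods describe dissection of the left ventricle.

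The electrical impulse of the heart starts in nodal cells, in which Hcn channels pass an inward current on hyperpolarization, and is carried through the working muscle by fast sodium current within cells and by connexin channels between cells. Each sodium channel has a pore-forming alpha subunit, of which Scn4a encodes the one of skeletal muscle, and beta subunits such as Scn4b that change its gating and its place in the membrane. Gja1 encodes connexin of the intercalated discs of working muscle, Gja5 connexin of atria, Purkinje fibres and arterial endothelium, and Gjc1 connexin of nodes, the early heart and vascular smooth muscle. Phospholipase Cb1 acts below Gq-coupled receptors, which are known to alter channel activity. The comparisons ask how the messenger RNA of these channels stands in hearts given either splice variant.

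The count table summed to between 13246339 and 24155465 per heart. Mitochondrially encoded genes took 67.1% to 71.9% of that, which left 3908354 to 7591558 for the nuclear genes. The channel genes were thinly covered apart from Gja1, which had 2216 to 4428 counts per heart. Scn4b had 236 to 646 counts, Scn4a 180 to 439, Gjc1 78 to 207 and Hcn2 65 to 195. Gja5 with 32 to 61 counts and Hcn4 with 27 to 75 were the lowest, and all 7 passed the filter on low counts that left 12281 genes to test.

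Markers of the labelled tissue were abundant in every heart. The 6 ventricular muscle genes, all tested, summed to between 14497 and 17559 FPKM, with Myl2 highest at a mean of 5574. Of 5 nodal genes 3 were tested, and their sum lay between 1.15 and 1.78 FPKM, with Tbx3 highest at 0.951, Isl1 at 0 in every heart and Shox2 at 0 in some. The 5 Purkinje fibre genes, 3 of them tested, summed to between 1.84 and 3.13 FPKM, with Etv1 highest at 1.0. These hearts thus gave ventricular muscle RNA with little RNA of the conduction system. In such bulk tissue fewer cells of a type and less RNA per cell cannot be told apart.

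Other marker lists gave the setting in which the channels were measured. The 5 atrial genes (4 tested, Nppa highest at a mean of 46.4, Bmp10 at 0 in some hearts) summed to between 45.2 FPKM in PLCb1a heart 9 and 121 in PLCb1a heart 13. The lists for endothelium (82.2 to 102 FPKM, Cdh5 highest), arterial endothelium (7.03 to 9.76, Efnb2 highest), smooth muscle and pericytes (105 to 124, Rgs5 highest) and fibroblasts (146 to 183, Dcn highest) each had 5 of 5 genes tested and lay within narrow ranges. Schwann cell and neuron genes (2 of 5 tested, Th at 0 in every heart) summed to between 0.956 and 1.75 FPKM, and erythrocyte genes (1 of 4 tested, Hbb-bs not in the table, Hba-a1 highest) to between 164 and 388. None of the 7 skeletal muscle genes was tested, and their sum was 0.569 to 1.48 FPKM in 17 hearts and 12.3 in PLCb1a heart 21. Scn4a, the skeletal muscle channel, stood at 3.37 FPKM in that heart, the highest of a PLCb1a group that ran from 3.01, but by CPM (19.0) it was below PLCb1a hearts 13 (19.3) and 14 (20.1).

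Gja1 was by far the most abundant of the 7 genes, at a mean of 69.8 FPKM (SD 6.14, n = 18). It was followed by Scn4b at 6.37 (SD 1.23), Gjc1 at 4.14 (SD 0.481), Scn4a at 3.01 (SD 0.385), Hcn2 at 2.41 (SD 0.523), Gja5 at 1.0 (SD 0.146) and Hcn4 at 0.694 (SD 0.184). Within a heart, Gja1 exceeded Scn4b by between 7.95 and 15 times, and the 18 values of either gene did not overlap. Hcn2 and Gja5 were likewise apart, with Hcn2 higher by 1.75 to 3.60 times. Other neighbours were not apart: Scn4a exceeded Hcn2 in 16 of 18 hearts and Gja5 exceeded Hcn4 in 15 of 18. Gjc1 was above Scn4a in 18 of 18 hearts by FPKM, but on the other per-length scale (CPM, counts scaled to library size, divided by kilobases of merged exons) Scn4a was above Gjc1 in 13 of 18, so the order of that pair depended on the scale. The plot of FPKM by gene shows these steps and the overlap of the 3 groups at each.

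**Figure D1:**
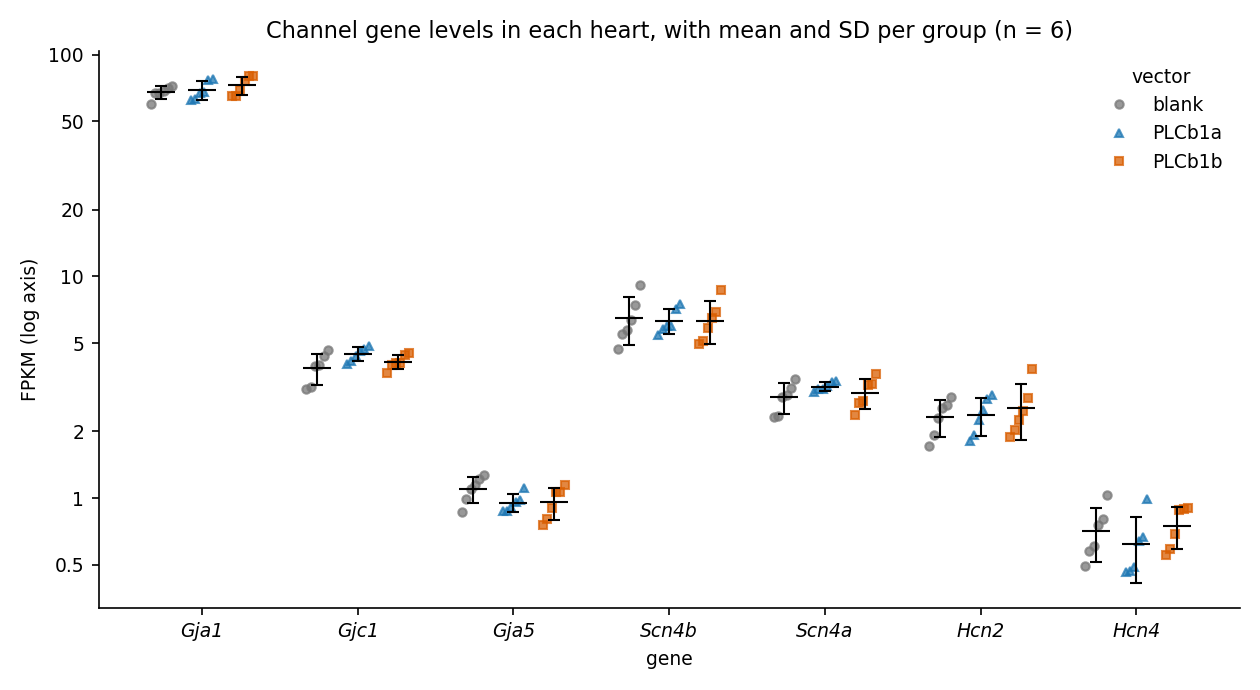
FPKM of the 7 channel genes on a log axis, 1 point per heart, with the mean and SD of the 6 hearts of each vector group as black bars. The level of a gene spans a narrow range across groups while genes differ from a mean of 0.694 (Hcn4) to 69.8 (Gja1).

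The share of each gene in its family was steady for Gja1 and varied for Hcn4. Gja1 made up a median of 87.7% of the summed FPKM of 20 connexin genes (86.2% to 89.2% over the hearts), Gjc1 5.07% and Gja5 1.25% (0.901% to 1.66%), with Gja3 (3.25%) and Gja4 (2.03%) as the other connexins tested. Scn4a took 9.11% of the sodium channel alpha subunits (7.72% to 10.6%) and Scn7a 14.5%. Scn4b took 67.7% of the beta subunits (56.1% to 74.4%). Hcn2 took 71.4% of the Hcn channels (60.8% to 81.4%) and Hcn4 19.8% (11.8% to 33.6%). The bars of family shares are nearly alike in the 3 vector groups, and the widest gap between group means was for Hcn2, with 70.1% in blank hearts and 74.3% in PLCb1a hearts.

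**Figure D2:**
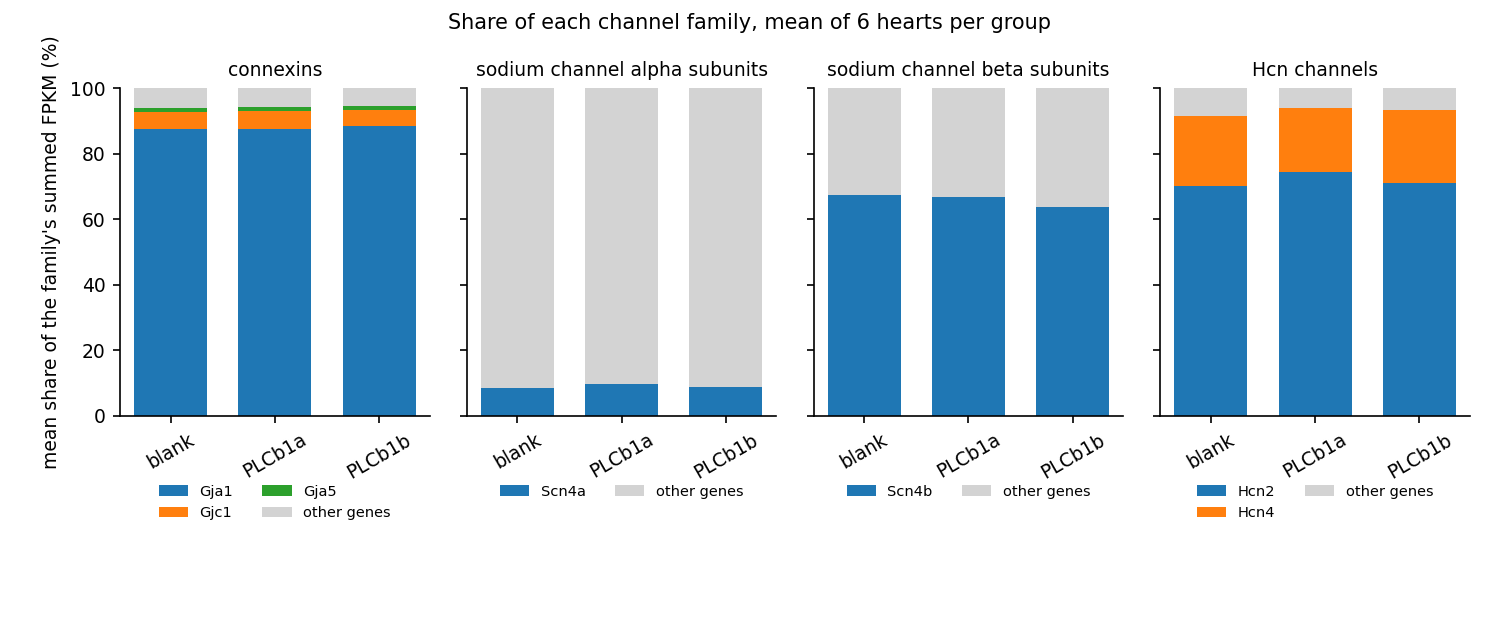
Share of each channel family's summed FPKM held by the genes described here (colours) and by all others together (grey), as the mean of 6 hearts per vector group. Gja1 holds 87.4% to 88.4% of the connexins, Scn4b 63.8% to 67.4% of the beta subunits and Hcn2 70.1% to 74.3% of the Hcn channels.

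Because genes of a family can share reads, the transcripts of GENCODE M21 (GRCm38, the assembly that UCSC calls mm10) were compared in windows of 76 bases, the read length stated in the study's methods. No window in Scn4a, Scn4b, Gja1, Gjc1, Hcn2 or Hcn4 occurred in another gene. In Gja5, 708 of 5737 windows (12.34%) also occurred in Zfp697, so reads from that stretch are uncertain. In the gene models the authors counted on, none of the 7 genes shared an exon base with another gene.

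Gja1 (mm10, chr10:56377300-56390419, plus strand, 2 exons) is the connexin of working ventricular muscle. Its level ran from 59.8 to 72.5 FPKM in blank hearts (median 67.9), from 62.7 to 78 in PLCb1a hearts (median 67.5) and from 64.8 to 80.0 in PLCb1b hearts (median 72.8). The groups overlapped, with blank heart 30 lowest and PLCb1b heart 4 highest, and 3 of 6 PLCb1b hearts were above every blank heart. Above the median of the blank hearts were 4 PLCb1b hearts by FPKM and all 6 by CPM. The fold change of PLCb1b against blank was 1.09 (95% interval 1.01 to 1.17), with an unadjusted p of 0.0325 and an edgeR adjusted p of 0.632. Against blank, PLCb1a hearts gave 1.04 (0.962 to 1.12). The difference in Gja1 between PLCb1b and blank thus did not pass adjustment over all genes tested.

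Gjc1 (chr11:102799478-102819686, minus strand, up to 3 exons) is known from nodal tissue and vascular smooth muscle. It ran from 3.11 to 4.63 FPKM in blank hearts (median 3.96), from 4.04 to 4.87 in PLCb1a hearts (median 4.50) and from 3.67 to 4.49 in PLCb1b hearts (median 4.05). All 6 PLCb1a hearts lay above the median of the blank hearts and 2 above every blank heart (3 by CPM), while blank hearts reached down to heart 30. The fold change of PLCb1a against blank was 1.17 (1.04 to 1.32), with an unadjusted p of 0.0109 and an edgeR adjusted p of 0.39. For PLCb1b against blank the fold change was 1.08 (0.958 to 1.22), and for PLCb1b against PLCb1a 0.923 (0.822 to 1.04). None of these passed the adjusted threshold of 0.1.

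Gja5 (chr3:97032402-97053634, plus strand, up to 3 exons), the connexin of the Purkinje system and arterial endothelium, was near 1 FPKM. It ran from 0.869 to 1.27 FPKM in blank hearts (median 1.12), from 0.870 to 1.11 in PLCb1a hearts (median 0.936) and from 0.752 to 1.14 in PLCb1b hearts (median 0.982). None of the PLCb1a hearts and 1 of the PLCb1b hearts was above the median of the blank hearts by FPKM, while 3 of 6 blank hearts were above every PLCb1a heart. By CPM these counts were 1, 2 and 1. The fold change was 0.883 both for PLCb1b against blank (0.735 to 1.06) and for PLCb1a against blank (0.734 to 1.06), with edgeR adjusted p of 0.814 and 0.738. Both intervals also hold 1, no difference. The summed arterial endothelium genes had medians of 8.30 FPKM in blank, 7.94 in PLCb1a and 7.60 in PLCb1b hearts. Their ranges overlapped (7.40 to 9.76, 7.31 to 8.53 and 7.03 to 7.86). Neither their difference between groups nor their part in the level of Gja5 was tested.

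The balance of the connexins was compared within hearts, as the ratio of FPKM. The ratio of Gja5 to Gja1 was 0.0139 to 0.0186 in blank hearts (median 0.0167), 0.0112 to 0.0165 in PLCb1a hearts (median 0.0141) and 0.0101 to 0.0174 in PLCb1b hearts (median 0.0128). Its mean log2 ratio was lower than in blank hearts by a difference of -0.23 in PLCb1a hearts (exact permutation p = 0.0368, both tails, every arrangement of the hearts) and -0.31 in PLCb1b hearts (exact permutation p = 0.0563). Over the 12 ratio tests run, both had an adjusted p of 0.317. The ratio of Gjc1 to Gja1 had medians of 0.0568, 0.0679 and 0.0565 in blank, PLCb1a and PLCb1b hearts, with no exact permutation p below 0.106. Neither ratio separated the groups after adjustment.

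Scn4a (chr11:106318593-106349390, minus strand, 24 exons), the skeletal muscle alpha subunit, ran from 2.32 to 3.46 FPKM in blank hearts (median 2.89), from 3.01 to 3.37 in PLCb1a hearts (median 3.14) and from 2.38 to 3.62 in PLCb1b hearts (median 2.99). The PLCb1a hearts were close together and all 6 lay above the median of the blank hearts, whose lowest values came from hearts 26 and 30. The fold change of PLCb1a against blank was 1.15 (1.03 to 1.28), with an unadjusted p of 0.017 and an edgeR adjusted p of 0.461. PLCb1b against blank gave 1.08 (0.962 to 1.2) and PLCb1b against PLCb1a 0.937 (0.84 to 1.05). The adjusted threshold was passed in none of the 3.

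Scn4b (chr9:45139042-45154061, plus strand, 5 exons), a beta subunit, ran from 4.70 to 9.13 FPKM in blank hearts (median 6.04), from 5.44 to 7.54 in PLCb1a hearts (median 5.99) and from 4.95 to 8.69 in PLCb1b hearts (median 6.15). Blank heart 33 and PLCb1b heart 8 stood highest, so that hearts within a group differed more than the groups did. The fold change was 1 for PLCb1b against blank (0.816 to 1.23) and 0.99 for PLCb1a against blank (0.806 to 1.22). Those intervals allow for a change in either direction. The ratio of Scn4b to Scn4a had medians of 2.23 in blank, 1.94 in PLCb1a and 2.12 in PLCb1b hearts, and the difference of PLCb1a from blank, -0.19 on the log2 scale, had an exact permutation p of 0.0887 and an adjusted p of 0.317 over the 12 ratios.

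Hcn2 (chr10:79716634-79736108, plus strand, 8 exons) is the pacemaker channel best known from ventricular muscle. It ran from 1.72 to 2.86 FPKM in blank hearts (median 2.41), from 1.80 to 2.92 in PLCb1a hearts (median 2.37) and from 1.88 to 3.82 in PLCb1b hearts (median 2.36). PLCb1b heart 8 stood above all others, and the medians lay within 0.1 FPKM of each other. The fold change was 1.1 for PLCb1b against blank (0.891 to 1.37) and 1.03 for PLCb1a against blank (0.833 to 1.28). The first rested on PLCb1b heart 8, without which the log2 fold change fell from 0.142 to 0.006.

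Hcn4 (chr9:58823512-58860955, plus strand, 8 exons), the main channel of sinus node cells, was the least abundant of the 7. It ran from 0.496 to 1.03 FPKM in blank hearts (median 0.680), from 0.463 to 0.994 in PLCb1a hearts (median 0.564) and from 0.555 to 0.900 in PLCb1b hearts (median 0.784). In the PLCb1a group 3 of 6 hearts were below every blank heart, yet PLCb1a heart 14 had nearly the highest value of all. The fold change was 0.845 for PLCb1a against blank (0.641 to 1.11), 1.03 for PLCb1b against blank (0.789 to 1.34) and 1.22 for PLCb1b against PLCb1a (0.928 to 1.6), none with an edgeR adjusted p below 0.768. In PLCb1a against blank the log2 fold change was -0.243, and it was -0.407 without PLCb1a heart 14 and -0.093 without blank heart 34. The ratio of Hcn4 to Hcn2 had medians of 0.320, 0.235 and 0.326 in blank, PLCb1a and PLCb1b hearts, with no exact permutation p below 0.442.

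Taking the comparisons one at a time, PLCb1b hearts differed from blank hearts in none of the 7 genes by edgeR at an adjusted p below 0.1, where 0.0977% of all genes tested passed (12 genes). At an unadjusted p below 0.05 it was 1 of 7 (Gja1), against 7.41% of all genes, and DESeq2 and limma on FPKM called 0 of the members too. No member had groups that did not overlap by CPM, against 0.480% of all genes. The members' log2 fold changes had a median absolute value of 0.11, against 0.07 over all genes tested. The fold change was above 1 for 6 of 7 by edgeR, of which Scn4b fell below 1 in limma on FPKM.

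PLCb1a hearts differed from blank hearts in 0 of 7 genes by edgeR at the same threshold, where 0.138% of all genes passed (17 genes), and DESeq2 and limma on FPKM called 0 as well. At an unadjusted p below 0.05 it was 2 of 7 (Gjc1 and Scn4a, both higher), against 8.58% of all genes. No member had groups that did not overlap, against 0.594% of all genes, and their log2 fold changes had a median absolute value of 0.18, against 0.07. Some marker sums also had other medians in PLCb1a than in blank hearts. These were 316 against 227 FPKM for erythrocyte genes, 2.27 against 2.60 for Purkinje fibre genes and 108 against 116 for smooth muscle and pericyte genes. The ranges of each overlapped, and their part in the levels of the members was not tested. Both comparisons with blank share the 6 blank hearts. Between PLCb1b and PLCb1a hearts edgeR called 0 of 7 members, as it called 0% of all genes tested, and 0 of 7 had an unadjusted p below 0.05, against 4.42% of all genes. There DESeq2 and limma on FPKM called 0 members, no member had groups that did not overlap (0.179% of all genes did), and the median absolute value was 0.09, against 0.06. The plot of fold changes shows intervals that take in 0 for all but Gja1 in the first comparison and Gjc1 and Scn4a in the second.

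**Figure D3:**
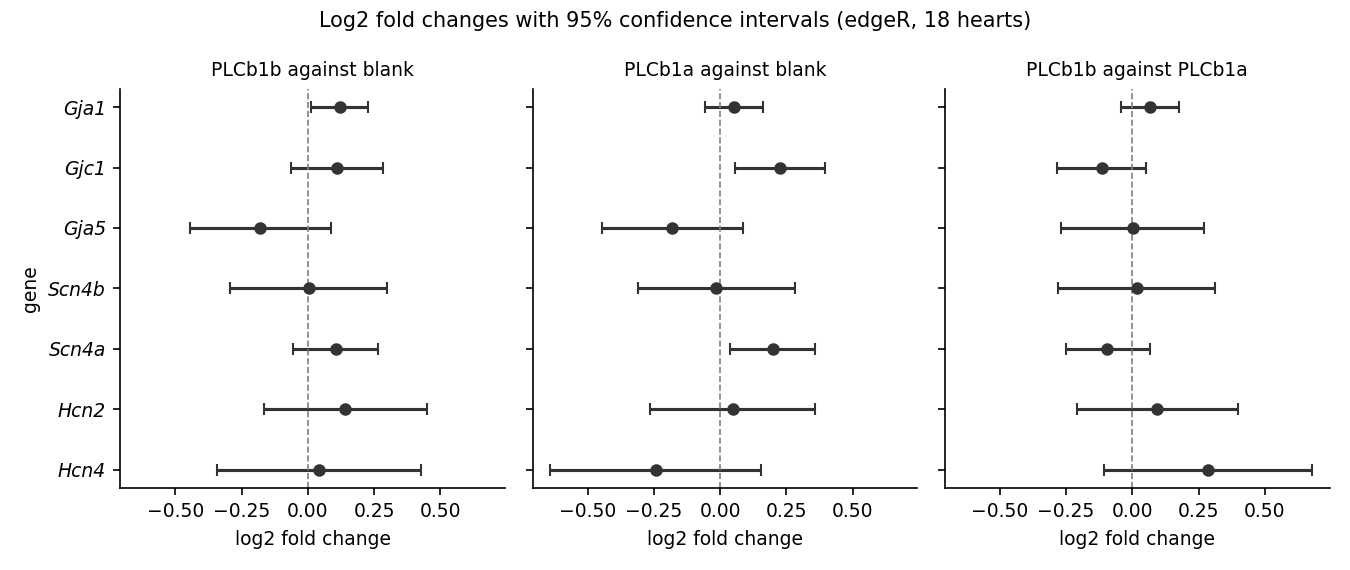
Log2 fold changes of the 7 channel genes in the 3 comparisons (points), with 95% confidence intervals from edgeR's fit of 18 hearts (bars) and a dashed line at 0. Of the 21 intervals, 3 exclude 0: Gja1 in PLCb1b against blank, and Gjc1 and Scn4a in PLCb1a against blank.

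The genes differed in how much they varied from heart to heart. The coefficient of variation of CPM over the 18 hearts was 7.80% for Gja1 and 27.3% for Hcn4, and 90.9% of all genes tested had a lower value than Hcn4. Gjc1 (11.4%) and Scn4a (11.7%) were near the median of all genes, 11.2%, while Gja5 (15.5%), Scn4b (16.4%) and Hcn2 (19.1%) were above it. These values hold counting error, most for Hcn4 (27 to 75 counts per heart) and Gja5 (32 to 61). Its part was not tested, and the comparison with all genes was not matched on counts. By FPKM, blank heart 30 was the lowest of the blank hearts for 5 of the 7 genes (Gja1, Gja5, Gjc1, Hcn2 and Hcn4) and blank heart 26 for Scn4a and Scn4b. Those hearts also had the lowest slopes of log2 CPM on the GC share of genes, -0.65 and -0.45 per unit, against up to 0.57 in PLCb1b heart 4. The part of that slope in the levels was not tested. The pairs of members below were also computed with it removed from both genes. The relations with macrophage markers were also computed with it removed from the member but not from the marker sum. The map of deviations shows that high hearts differed by gene: blank heart 33 and PLCb1b heart 8 for Scn4b, PLCb1a heart 14 and blank heart 34 for Hcn4.

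**Figure D4:**
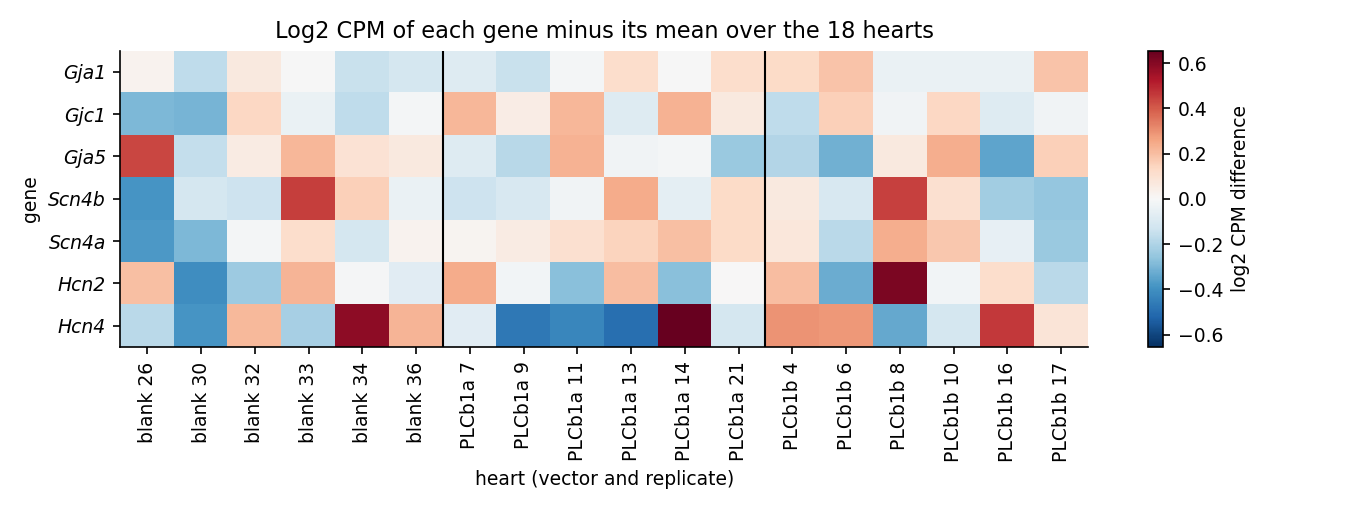
Log2 CPM of each channel gene minus its mean over the 18 hearts, with 1 column per heart in the order blank, PLCb1a and PLCb1b (black lines divide the groups) and red for higher values. No gene is red throughout 1 group and blue throughout another, and Hcn4 and Hcn2 show the deepest colours.

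Across hearts, 1 of the 21 pairs of members had an adjusted p below 0.05. Scn4a and Scn4b, an alpha and a beta subunit, were both lowest in blank heart 26 and both among the highest in PLCb1b heart 8. Their log2 CPM gave Pearson's r = 0.679 over 18 hearts (permutation p = 0.00203, adjusted over 21 pairs 0.0426) and Spearman's rho = 0.732 (permutation p = 0.000850, adjusted 0.0178). Without blank hearts 26 and 30, the farthest from the median of Scn4a, r was 0.598. It was 0.747 within blank, 0.471 within PLCb1a and 0.880 within PLCb1b hearts, and 0.774 over deviations from the group means. The relation sat close to the threshold: leaving out 1 heart gave r from 0.589 (without blank heart 26) to 0.731 and an adjusted p over 0.05 for 11 of the 18 hearts, and with the GC slope removed r was 0.648 with an adjusted p of 0.0806. By r among the other 12280 genes tested, Scn4b ranked 60 for Scn4a and Scn4a ranked 43 for Scn4b. The other pairs of members had r from -0.240 to 0.546, the median over all 21 was -0.0428, and 10 of 21 were above 0.

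Scn4a with Gjc1 (r = 0.546, permutation p = 0.0189, rho = 0.385 with permutation p = 0.117) and Scn4b with Hcn2 (r = 0.496, permutation p = 0.0365, rho = 0.381 with permutation p = 0.119) had adjusted p of 0.198 and 0.255. Both rested on 2 hearts: r was 0.166 without blank hearts 26 and 30 for the first pair, and 0.133 without blank heart 33 and PLCb1b heart 8 for the second. Among connexins and among pacemaker channels no pair had r above 0.153 (Gja1 with Gjc1). Gja1 with Gja5 gave r = -0.0947 (permutation p = 0.706, rho = -0.117 with p = 0.643), and Hcn2 with Hcn4 gave r = -0.232 (permutation p = 0.358, rho = -0.201 with p = 0.425), with adjusted p of 0.911 for both.

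Since Scn4a and Scn4b were the pair that varied together, the 250 bases before their start sites are shown (RefSeq, GRCm38.p6, 5′ to 3′ on the gene's strand), Scn4a from chr11:106349391-106349640 on the minus strand and Scn4b from chr9:45138374-45138623 on the plus strand. Capitals mark CTGCGGGCTG, the longest run they share, 10 bases that end 54 bases before the start of Scn4a and 24 before that of Scn4b. This run was in 0.152% of all promoters, but it was picked because both of these hold it, so that share says nothing about the pair. How long a run other pairs of promoters share was not tested. The RefSeq starts of Scn4b and Hcn4 lie 418 and 563 bases before the starts of the gene models given above.
Scn4a: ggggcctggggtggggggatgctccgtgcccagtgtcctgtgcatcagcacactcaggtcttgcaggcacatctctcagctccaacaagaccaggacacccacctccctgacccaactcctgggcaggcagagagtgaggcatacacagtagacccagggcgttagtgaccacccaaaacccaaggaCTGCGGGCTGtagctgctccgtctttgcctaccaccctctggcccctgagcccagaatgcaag
Scn4b: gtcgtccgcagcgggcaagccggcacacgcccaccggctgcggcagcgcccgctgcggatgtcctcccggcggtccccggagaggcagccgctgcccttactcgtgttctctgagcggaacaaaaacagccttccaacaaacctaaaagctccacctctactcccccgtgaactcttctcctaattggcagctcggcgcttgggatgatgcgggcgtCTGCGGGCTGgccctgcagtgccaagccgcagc
The RefSeq table held promoters for 6 of the 7 members, not for Gjc1. These were searched on both strands for AGGTGT (the core of T-box factors, in 11.8% of all promoters), AGATAA (the core of the GATA factors, in 10%), AAGTG (the core of the Nkx factors, in 40.7%) and GGGCGG (the box of the Sp factors, in 32.7%), whose matches did not overlap. The promoters of Scn4a and Scn4b held none of the 4. That of Hcn4 held AGGTGT, which ended 228 bases before the RefSeq start, and GGGCGG in a pair of places. The promoter of Gja5 held AAGTG and GGGCGG, and the promoter of Gja1 held AGATAA. Hcn2 held GGGCGG, each time as its reverse complement, in the 3 places shown in capitals (chr10:79716384-79716633, plus strand).
Hcn2: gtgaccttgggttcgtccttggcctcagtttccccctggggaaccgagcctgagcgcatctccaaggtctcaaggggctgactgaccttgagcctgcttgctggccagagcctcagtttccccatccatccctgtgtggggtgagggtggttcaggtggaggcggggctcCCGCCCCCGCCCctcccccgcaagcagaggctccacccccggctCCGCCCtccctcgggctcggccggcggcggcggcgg
A match is a run of letters and no evidence of binding.

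Hcn2 and Scn4b also varied with macrophage markers. Csf1r, Mrc1 and Cd68 (3 of the 4 genes listed, Adgre1 not being in the table) were all tested, Csf1r was highest at a mean of 6.14 FPKM, and none was at 0. Their sum ran from 11.6 to 16.9 FPKM in blank hearts (median 13.5), from 12.9 to 15.8 in PLCb1a hearts (median 13.8) and from 12 to 17.7 in PLCb1b hearts (median 13.1). PLCb1b heart 8, highest for Hcn2, had the highest sum, and blank heart 30, lowest for Hcn2, the lowest. Relations with marker lists set log2 CPM of the member against log2 of the summed FPKM plus 0.1. Of the 84 relations of 7 members with 12 marker lists, 2 had an adjusted p below 0.05. Hcn2 gave r = 0.829 with the macrophage sum (permutation p = 2e-05, adjusted 0.00168) and rho = 0.851 (permutation p = 6e-05, adjusted 0.00504). Without PLCb1b heart 8 and blank heart 33, r was 0.750, and over group deviations 0.842. Leaving out any 1 heart it stayed between 0.777 and 0.870. With the GC slope removed from Hcn2 but not from the marker sum, r was 0.759 (adjusted permutation p = 0.0202). Scn4b gave r = 0.734 (permutation p = 0.000450, adjusted 0.0189) and rho = 0.692 (permutation p = 0.00182, adjusted 0.0764). Without the same 2 hearts r was 0.543, and with the GC slope removed from Scn4b alone 0.724 (adjusted permutation p = 0.0260). The adjusted p of Scn4b was 0.0966 without blank heart 33, 0.154 without PLCb1b heart 8 and 0.0521 without PLCb1b heart 17. The part of macrophage RNA in the levels of Hcn2 and Scn4b was not tested.

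**Figure D5:**
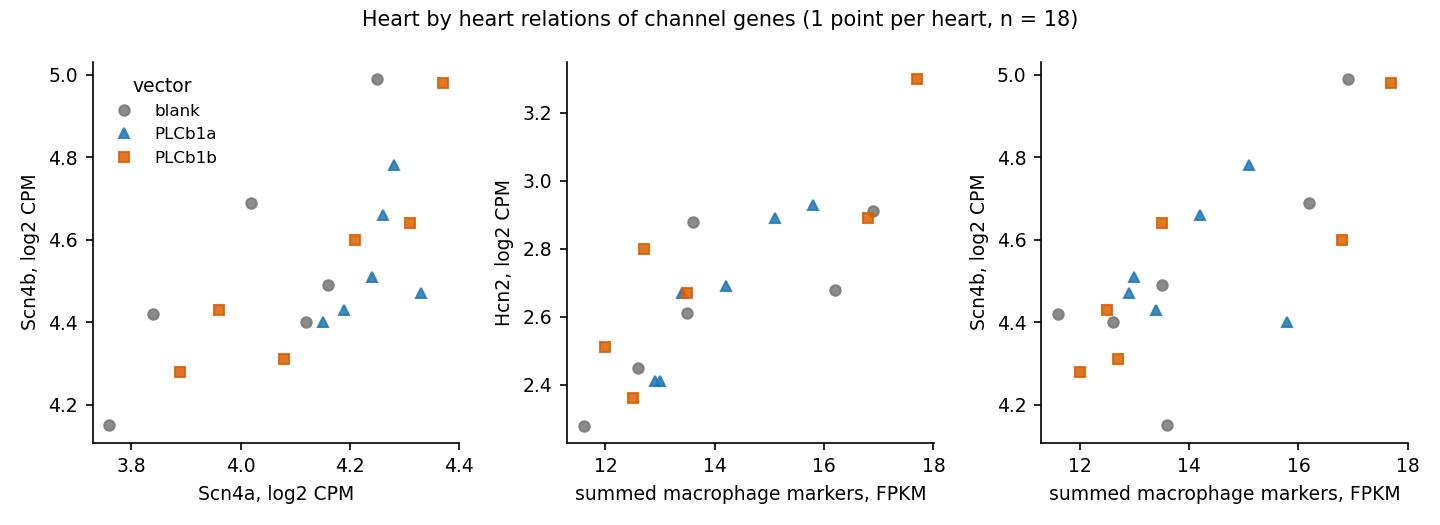
Relations over 18 hearts, 1 point per heart with a colour and shape for each vector: Scn4b against Scn4a (left, both log2 CPM), and Hcn2 (middle) and Scn4b (right), in log2 CPM, against the summed FPKM of 3 macrophage markers. Pearson's r is 0.679, 0.829 and 0.734, and PLCb1b heart 8 is at the upper right in all 3. For the middle and right plots r was taken on log2 of the marker sum plus 0.1, not on the sum drawn.

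With the other lists no member had an adjusted p below 0.05, including lists that fit a known site of expression. Gja5 gave r = 0.178 with arterial endothelium (permutation p = 0.487, rho = 0.236 with p = 0.346) and r = -0.566 with the Purkinje fibre genes (permutation p = 0.0146, rho = -0.585 with p = 0.0125, adjusted 0.205 and 0.210). The latter was -0.305 without PLCb1b heart 6 and blank heart 26, and -0.752 over deviations from the group means. Hcn4 gave r = 0.314 with the nodal genes (permutation p = 0.204, rho = 0.307 with p = 0.215). Scn4a gave r = 0.260 with the skeletal muscle genes (permutation p = 0.302, rho = 0.350 with p = 0.155), and 0.224 without PLCb1a heart 21 and PLCb1b heart 4.

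The genes most like each member were taken as the 3 of the other 12280 tested with the highest r of log2 CPM over 18 hearts, as a description. For Scn4a these were Ap5z1 (r = 0.885), Rab34 (0.835) and Ncf1 (0.798), although within PLCb1a hearts r was 0.213, 0.0664 and -0.103. For Scn4b they were Hfe (0.843), Psap (0.833) and Bcat2 (0.815). Those of Hcn2 included the macrophage receptor gene Csf1r (0.810) and F13a1 (0.809). The connexins had Itih5 (0.809), Frmd6 (0.756) and Dctn2 (0.734) for Gja1, Bbx (0.841), Lmo7 (0.837) and Pou2f1 (0.816) for Gjc1, and Tmem189 (0.769), Uggt1 (0.752) and Slc48a1 (0.729) for Gja5. For Hcn4 they were Gnptg (0.790), Ndfip1 (0.756) and Slc25a26 (0.745). Among genes of the wider lists, Tbx5 ranked 6 of 12280 for Hcn2 (r = 0.764). The desmosomal cadherin gene Dsg2 ranked 5 for Scn4a (0.771) and 9 for Scn4b (0.766). Tbx5 and Dsg2 were picked out after their values were seen.

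The other genes of these systems were read from 5 lists, of which 51 genes were tested. The lists were chosen with earlier results of these data known, so the shares below are no test of them. In PLCb1b against blank edgeR called 1 of 51 (higher) and none lower, against 0.0977% of all genes tested. At an unadjusted p below 0.05 it was 9, 17.6% against 7.41%. In PLCb1a against blank it called 1 of 51 (higher) and none lower, against 0.138%, with 10 at an unadjusted p below 0.05, 19.6% against 8.58%. Between the PLC groups edgeR called 0, with 2 at an unadjusted p below 0.05 (3.92% against 4.42%), and DESeq2 and limma on FPKM also called 0. The medians of log2 fold change were 0.05, 0.04 and -0.02, against 0 over all genes in each comparison. The genes called were the conduction transcription factors Prox1 (log2 fold change 0.28 ± 0.06 SE, PLCb1b against blank, edgeR adjusted p = 0.0555) and Irx3 (0.49 ± 0.11, PLCb1a against blank, edgeR adjusted p = 0.0566). The other PLC group differed from blank by nearly as much, Prox1 by 0.24 ± 0.06 in PLCb1a hearts (edgeR adjusted p = 0.163) and Irx3 by 0.45 ± 0.11 in PLCb1b hearts (edgeR adjusted p = 0.125). Between the PLC groups the log2 fold changes were 0.04 ± 0.06 for Prox1 and -0.04 ± 0.10 for Irx3. Both calls were lost in limma on FPKM and without robust dispersions. That of Irx3 was also lost in DESeq2, which gave it no adjusted p, and with only the groups compared (edgeR adjusted p = 0.112). DESeq2 gained Prox1 in PLCb1a against blank (adjusted p = 0.0917) and Irx3 in PLCb1b against blank (0.0938).

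Of the sodium channels, 6 of 13 were tested and none passed in any comparison. Scn7a stood at 4.33 to 5.35 FPKM. Of the other connexins and pannexins, 3 of 20 were tested and none passed. Gja3 and Gja4, at means of 2.64 and 1.64 FPKM, were the most abundant.

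Of the pacemaker partners, 4 of 8 were tested and none passed, with the calcium channels Cacna1g and Cacna1h most abundant at 0.979 and 0.611 FPKM.

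All 22 channel partners and intercalated disc genes, the structures in which Gja1 sits, were tested and none passed. Dsp and Ctnna1 were the most abundant, at means of 105 and 71.0 FPKM. Jup, which encodes plakoglobin, had the lowest p in both comparisons with blank, with log2 fold changes of 0.18 ± 0.05 (PLCb1b, edgeR adjusted p = 0.353) and 0.17 ± 0.05 (PLCb1a, edgeR adjusted p = 0.305). Dsp had 0.11 ± 0.04 and 0.10 ± 0.04. Of the 19 conduction transcription factors 16 were tested, with Hopx (66.1 FPKM) and Tbx20 (14.3 FPKM) most abundant. Tbx2, a repressor of the working muscle programme in the conduction system, had 2.99 to 3.57 CPM in PLCb1b hearts, above all PLCb1a hearts (2.26 to 2.78) but not all blank hearts (1.73 to 3.28). The log2 fold change was 0.37 ± 0.12 against PLCb1a (edgeR adjusted p = 0.971) and 0.45 ± 0.13 against blank (edgeR adjusted p = 0.228).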

How the data were processed

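Total RNA depleted of ribosomal RNA was sequenced as strand-specific paired reads from each heart. Per the submitters' processing notes, the authors aligned reads to mm10 with TopHat2 2.0.10 and deposited HTSeq counts per gene, without normalization. The deposited FPKM values were made by the authors, and the notes list Cufflinks 2.1. With TMM scaling, edgeR 4.0.16 in R 4.3.3 tested the counts (quasi-likelihood F test, 1 model of 18 hearts, 12281 genes with a minimum count of 10 and total of 15), adjusted by Benjamini-Hochberg over all genes and called below 0.1. Log2 CPM used a prior count of 2. Relations used 100000 permutations and ratios exact permutation tests, two-sided. The fit was checked on simulated counts. Alternatives included DESeq2 1.42.0 and limma 3.58.1 on FPKM. Named genes were all members, and from each wider list the 2 most abundant, the lowest p per comparison and any called, although some genes and sequences are not reported here. The members and lists were chosen with earlier results of these data known. No batch is given in the labels.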

Additional observations from a re-analysis of the deposited data

Results flagged for a closer look

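Within groups of 6 hearts, a value was picked out where its gap to the nearest other heart exceeded 0.625 of the group's range, a rule that chance meets in about 1 in 20 groups. Of 90 groups of values 4 met it. Hcn4 was 3.68 CPM in PLCb1a heart 14, with the next PLCb1a heart at 2.18. The ratio of Hcn4 to Hcn2 was 0.552 in the same heart, with the next at 0.258. The summed smooth muscle and pericyte markers were 122 FPKM in PLCb1a heart 7, with the next at 111. The summed skeletal muscle markers were 12.3 FPKM in PLCb1a heart 21, with the next at 1.29.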

How the results depend on the processing

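Members called were 0 in each comparison under all 10 other settings and with any 1 heart left out. Of the 201 fold changes of members under other settings, 192 kept their direction and their side of the threshold. The 10, the 201 and the 192 include the stricter threshold of 0.05 on the reported edgeR fit. Under that setting no member's fold change or call could change. The 9 that changed sign were all near 0. For Scn4b in PLCb1b against blank, the log2 fold change was -0.001 with no filter on low counts, -0.027 in limma on log2(FPKM + 0.1), -0.025 on log2(FPKM + 1) and -0.027 with a mean of at least 3 FPKM. For Scn4b in PLCb1b against PLCb1a these limma fits gave -0.017, -0.013 and -0.017. For Gja5 in PLCb1b against PLCb1a limma gave -0.006 on log2(FPKM + 0.1) and -0.001 on log2(FPKM + 1). Hcn2, Hcn4 and Gja5 had no value where a mean of at least 3 FPKM was asked. The cause of these changes was not tested.

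Leaving out 1 heart at a time changed the sign of 26 of 378 member fold changes. The 378 include fits without a heart of the group not compared, and all 26 came from leaving out a heart of a compared group. In PLCb1b against blank the log2 fold change ranged from -0.099 to 0.114 for Scn4b, from 0.006 to 0.22 for Hcn2 and from -0.038 to 0.192 for Hcn4. In PLCb1a against blank it ranged from -0.077 to 0.097 for Scn4b, from -0.016 to 0.113 for Hcn2 and from -0.407 to -0.093 for Hcn4. In PLCb1b against PLCb1a it ranged from -0.085 to 0.067 for Scn4b, from -0.059 to 0.064 for Gja5, from -0.042 to 0.171 for Hcn2 and from 0.217 to 0.45 for Hcn4. Of the 12 ratios, none passed 0.05 under either scale or without any heart, and in PLCb1b against blank Gjc1 to Gja1 ranged from -0.058 to 0.041 and Hcn4 to Hcn2 from -0.152 to 0.188.

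Wider list genes called in PLCb1b against blank, 1 as reported, were 2 by DESeq2, with no filter and with only the groups compared, and 0 without robust dispersions (added after seeing the data), at an adjusted p below 0.05 and in the 3 limma fits. In PLCb1a against blank, also 1, they were 2 with no filter, and 0 without robust dispersions, with only the groups compared, at 0.05 and in the 3 limma fits. With 1 heart left out they ranged from 0 to 2 and from 0 to 1. The edgeR call of Prox1 ended on leaving out any of blank hearts 30, 33 and 34 and PLCb1b hearts 4, 6 and 17 (adjusted p 0.133 to 0.246). That of Irx3 ended on leaving out any of blank hearts 26, 30, 32 and 36 and PLCb1a hearts 7, 11 and 21 (0.108 to 0.204). All genes called ranged over the settings from 4 to 24 in PLCb1b against blank (12 as reported), from 4 to 33 in PLCb1a against blank (17) and from 0 to 1 between the PLC groups (0). With 1 heart left out they ranged from 2 to 18, from 3 to 19 and from 0 to 1.

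Relations between members and with markers, and their alternatives, were added after seeing the data. With 27 to 75 counts of Hcn4 and 32 to 61 of Gja5 per heart, counting error limits these genes most. No paired analysis was possible because the groups share no replicate number.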
